A study of Mus musculus with 16 samples.

Results

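The comparison was the loss of Ch25h in mouse brain without a tau transgene, read from 4 Ch25h-/- Tau- libraries against 4 Ch25h+/+ Tau- libraries, 8 of the 16 libraries of the series, taken by their genotype labels and described across 17736 genes. All mice were female and 9 months of age, and bulk RNA was sequenced. The other 8 libraries, 4 Ch25h+/+ Tau+ and 4 Ch25h-/- Tau+, entered the same fit and were set beside the comparison. The sample labels give frontal cortex, whereas the series design text gives hippocampus. Tau+ is taken to mean that a tau transgene is carried. The transgene and its promoter, the strain and the way in which Ch25h was inactivated are not given in the sources used here. Nothing in the labels says that the libraries of a group came from separate animals, so the p-values measure the spread between these libraries. The labels number no replicates: the replicate numbers used below follow the order of the samples in the series, only name a library and pair none.

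Ch25h encodes cholesterol 25-hydroxylase, which turns cholesterol into 25-hydroxycholesterol. In the brain the enzyme is made mainly by microglia and macrophages and is induced by interferons and by ligands of Toll-like receptors. Its product holds back the processing of SREBP transcription factors, which drive cholesterol synthesis, and can activate the liver X receptors (LXR), which drive cholesterol export.

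Ch25h (chromosome 19, 34473778 to 34475164, GRCm38) checked the genotype labels. It had 9, 10, 5 and 6 counts in the 4 Ch25h+/+ Tau- libraries, or 0.416, 0.547, 0.216 and 0.302 CPM (counts scaled to a common library size, with TMM factors). It had 0 counts in all 4 Ch25h-/- Tau- libraries. Every Ch25h+/+ Tau- library was thus above every Ch25h-/- Tau- library, at a very low level. Against a floor of 3 counts per library, which is 0.167 to 0.181 CPM in the Ch25h-/- libraries, Ch25h was at least 2.1-fold lower. Its adjusted p was 0.0320 (edgeR quasi-likelihood F test, Benjamini-Hochberg over all genes tested), and the call held in 1 of 8 fits with 1 of these libraries left out and not with GC offsets (adjusted p 0.0748). Prnp, whose promoter drives some tau transgenes, was at 748 to 839 CPM in Ch25h+/+ Tau- against 708 to 833 CPM in Ch25h-/- Tau-, below all 8 Tau+ libraries, which lay between 1414 and 1935 CPM.

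The libraries differed with genotype in ways that the labels do not name. CT010467.1, a ribosomal RNA (rRNA) gene, was at 168 to 281 CPM on total counts in the 4 Ch25h+/+ Tau- libraries and at 5684, 4477, 3184 and 4250 in the 4 Ch25h-/- Tau- libraries. A library above 1000 is called rRNA-rich below. None of the 8 Ch25h+/+ libraries of the series and 7 of the 8 Ch25h-/- libraries were rRNA-rich, and the exception was Ch25h-/- Tau+ replicate 1, with 153.5. Within Tau-, rRNA content and Ch25h genotype therefore cannot be told apart. Mitochondrial genes took 2.9 to 3.68% of the counts in Ch25h+/+ Tau- against 3.78 to 4.57% in Ch25h-/- Tau-. Each library's deviation from the gene mean, correlated across genes with GC content (the share of G and C in the longest annotated transcript), gave a Spearman's rho of 0.175 to 0.354 in the Ch25h+/+ libraries and of -0.337 to -0.255 in the Ch25h-/- libraries of Tau-. Genes are not independent replicates, and these values describe the libraries. Total counts ran from 18613344 to 23323733 per library in Ch25h+/+ Tau-, and from 16265270 to 18235899 per library in Ch25h-/- Tau-.

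**Figure D1:**
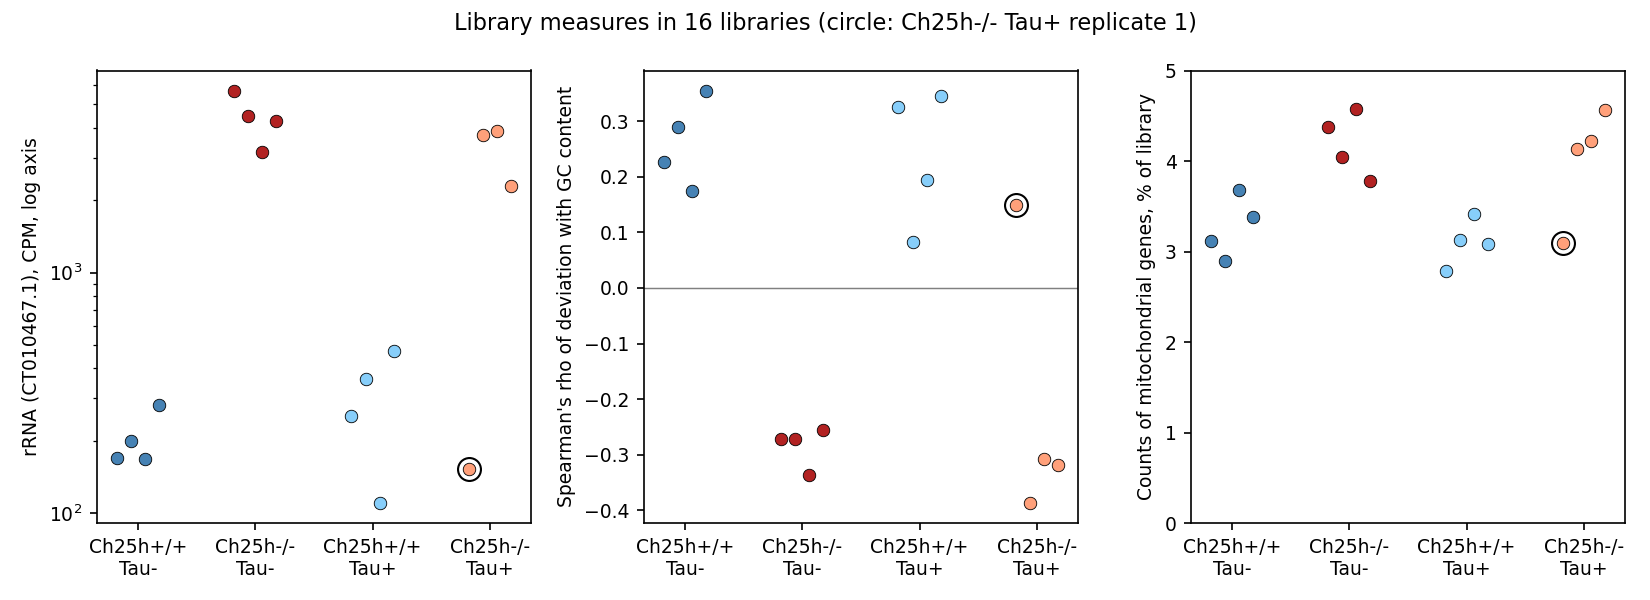
rRNA in CPM on total counts (log axis), Spearman's rho of each library's deviation with GC content, and the percentage of counts from mitochondrial genes, with 1 point per library in each of the 4 groups. The Ch25h-/- Tau- libraries lie at 3184 to 5684 CPM of rRNA, all above the Ch25h+/+ Tau- libraries, and the circled Ch25h-/- Tau+ replicate 1 lies with the Ch25h+/+ libraries at 153.5.

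Of 17736 genes tested, 182 (1.03%) passed an adjusted p of 0.05, and 3700 (20.9%) had an unadjusted p under 0.05. Of the 182, 38 (0.214%) were higher and 144 (0.812%) lower in Ch25h-/- Tau-. Their median log2 fold change was -0.42, and 30 of the 182 changed by at least 1 on the log2 scale. Protein-coding genes made up 26 of the 38 higher genes and 135 of the 144 lower genes. The other higher genes included 1 rRNA, 1 small structural RNA, 1 small Cajal body RNA, 1 mitochondrial tRNA and 2 long noncoding RNAs. In 180 of the 182 no library of one group overlapped the other group, against 2877 (16.2%) of all genes tested. Leaving out 1 of the 8 libraries left 3 to 21 genes past the threshold, except for 238 without Ch25h-/- Tau- replicate 4. A fit of only these 8 libraries gave 1229 genes (477 higher, 752 lower), and a covariate for the rRNA-rich class gave 0 (390 at an unadjusted p under 0.05). In bulk RNA, fewer cells of a type and less RNA per cell cannot be told apart.

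The higher and the lower genes differed in GC content. The 144 lower genes had a median GC content of 58.7% and the 38 higher genes one of 42.4%, against 49.6% over all genes tested. Genes were put into 10 bins of equal size by GC content. In the bin with the lowest GC content the median log2 fold change was 0.23, with 14 genes higher and 1 lower. In the bin with the highest it was -0.23, with 2 genes higher and 78 lower. Across 17598 genes with a known GC content, Spearman's rho between fold change and GC content was -0.538 (Pearson's r -0.387). When offsets that remove each library's own trend against GC content were put into the fit, the medians of all 10 bins lay between -0.01 and 0.00, and 13 genes (0.0733%) passed, 6 higher and 7 lower, all of them among the 182. With the same offsets in a fit of only the 8 Tau- libraries, 67 genes passed (0.378%), 32 of them among the 182.

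A pair of coding sequences shows what the base composition at either end of the GC range looks like. They were taken by a rule that fixes their contrast and that left out the genes of 1 autosome. From the other protein-coding nuclear genes it took the smallest p among those lower in the bin with the highest GC content. It did the same among those higher in the bin with the lowest. Dact3, an inhibitor of Wnt signalling, lies on chromosome 7 from 16875317 to 16887462 (GRCm38, plus strand), and Zfp280c, a zinc finger gene, on chromosome X from 48541625 to 48594504 (minus strand). Bases 1 to 150 of the coding sequence of the longest GENCODE M21 transcript follow, 5′ to 3′, with G and C in capitals.
Dact3: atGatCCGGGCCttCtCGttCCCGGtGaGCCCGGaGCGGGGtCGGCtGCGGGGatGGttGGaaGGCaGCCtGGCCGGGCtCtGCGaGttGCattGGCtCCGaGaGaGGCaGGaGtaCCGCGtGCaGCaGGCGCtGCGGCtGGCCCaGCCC
Zfp280c: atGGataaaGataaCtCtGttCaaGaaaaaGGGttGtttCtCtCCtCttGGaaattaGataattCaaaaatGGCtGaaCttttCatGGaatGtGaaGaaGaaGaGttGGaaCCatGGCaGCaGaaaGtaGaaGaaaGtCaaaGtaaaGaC
G and C made up 70.7% of the stretch of Dact3 and 35.3% of that of Zfp280c, and 66.4% and 37.8% of the whole transcripts.

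Dact3 was at 319, 316, 281 and 323 CPM in Ch25h+/+ Tau- and at 215.5, 219, 199.8 and 230.2 CPM in Ch25h-/- Tau-, with no overlap. Its log2 fold change was -0.52 (SE 0.07, adjusted p 0.0113), and the call held in 7 of the 8 fits without 1 library. With GC offsets the change was -0.20 and did not pass (adjusted p 0.256). Zfp280c was at 19.6, 20.4, 19.8 and 19.6 CPM in Ch25h+/+ Tau- and at 28.7, 28.4, 32.2 and 24.3 CPM in Ch25h-/- Tau-, also without overlap. Its log2 fold change was 0.52 (SE 0.10, adjusted p 0.0265), and 0.26 with GC offsets (adjusted p 0.245).

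**Figure D2:**
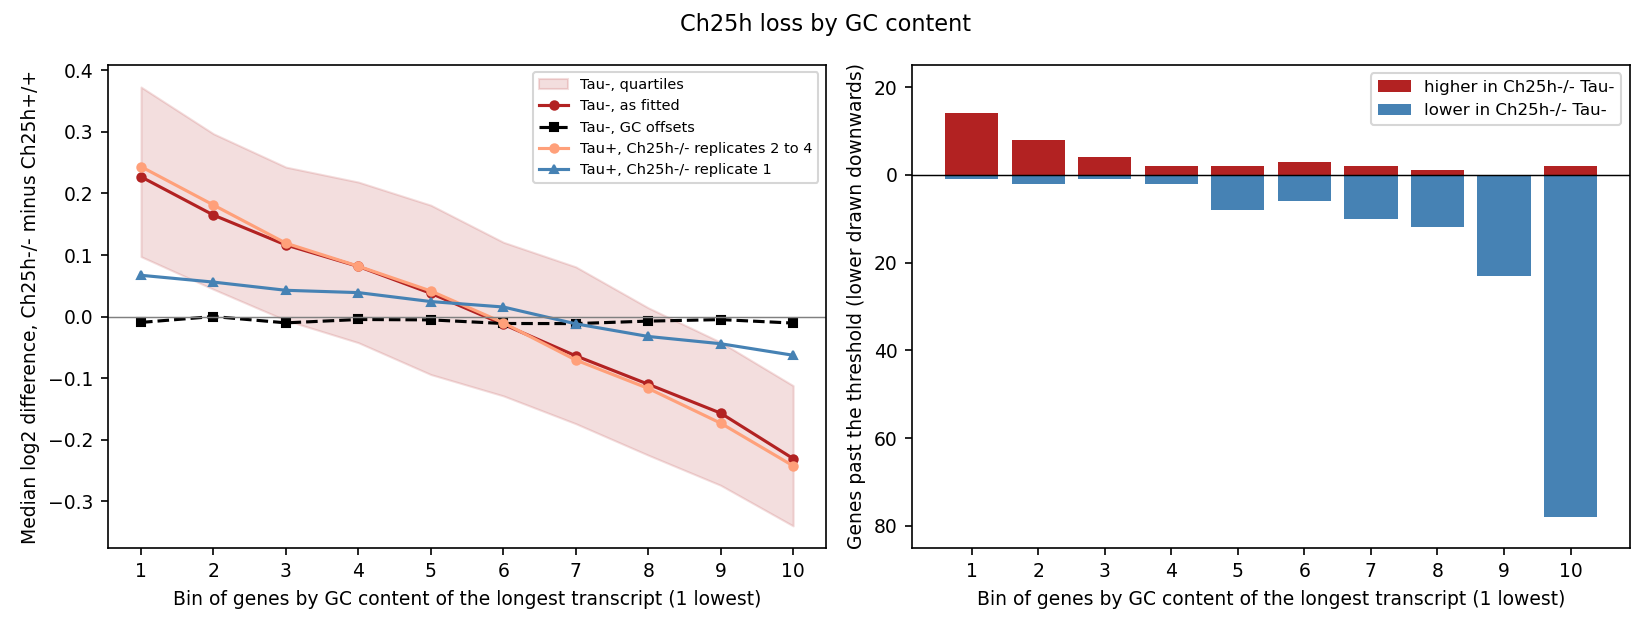
Left, the median log2 difference of Ch25h-/- minus Ch25h+/+ in 10 bins of genes by GC content, for Tau- as fitted (with quartiles), Tau- with GC offsets, and Tau+ with the rRNA-rich replicates 2 to 4 or the rRNA-poor replicate 1 of Ch25h-/-; right, the number of genes past the threshold in Tau- in each bin. The Tau- medians run from 0.23 to -0.23, and 78 of the 144 lower genes lie in the last bin.

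The rRNA-poor library Ch25h-/- Tau+ replicate 1 gave a second reading of the 182 genes, as its difference from the mean of the 4 Ch25h+/+ Tau+ libraries on the scale of log2(CPM + 0.5). It is a single library, so its differences have no test. Over the 182 genes its median difference was -0.10, with the direction of Tau- in 152. The difference reached at least 0.5 of the Tau- fold change in the same direction in 34, against 7230 of all 17736 genes tested. The 182 genes were chosen by their Tau- differences, so 0.5 of their fold change is a larger step than in most genes. These counts are therefore not like for like. Ch25h-/- Tau+ replicates 2 to 4, which were rRNA-rich, gave a median of -0.33 and the direction of Tau- in 181. Over all 17736 genes tested the direction was shared with Tau- by 10690 genes in replicate 1 and by 13309 in replicates 2 to 4. Over the bins of GC content the median difference of replicate 1 ran from 0.07 to -0.06, a narrower range than in Tau-.

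Among genes past the threshold whose mean log2 CPM reached 1, the largest rises were in noncoding RNAs that also set the rRNA-rich Tau+ libraries apart. On TMM-scaled sizes CT010467.1 rose 21.2-fold (log2 fold change 4.40, SE 0.65, adjusted p 0.0113). Rn7sk, the 7SK RNA that holds the elongation factor P-TEFb inactive, was at 0.832, 0.492, 0.561 and 0.705 CPM in Ch25h+/+ Tau- and at 15.96, 7.71, 4.82 and 5.97 CPM in Ch25h-/- Tau-, a 13.1-fold rise (adjusted p 0.0284). The long noncoding RNA 9530059O14Rik was at 0.693, 0.93, 0.475 and 1.01 CPM against 10.5, 7.53, 12.1 and 7.75 CPM, a 12.2-fold rise (adjusted p 0.0113). In each of these the lowest Ch25h-/- Tau- library was far above the highest Ch25h+/+ Tau- library. In the rRNA-poor Ch25h-/- Tau+ replicate 1, Rn7sk was at 0.391 CPM and 9530059O14Rik at 0.704 CPM, within the range of the Ch25h+/+ libraries.

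Malat1, an abundant RNA that stays in the nucleus, was at 245, 223, 180.5 and 291 CPM in Ch25h+/+ Tau- and at 1021, 794, 721 and 399 CPM in Ch25h-/- Tau-, a 3.13-fold rise (adjusted p 0.0223). Its level in Ch25h-/- Tau+ replicate 1 was 237 CPM, against 622 to 645 CPM in replicates 2 to 4 of that group. Of the 12 nuclear long noncoding RNAs listed, Malat1 was the only one past the threshold (8.33%, against 0.214% of all genes tested higher). CT010467.1, Rn7sk, 9530059O14Rik and Malat1 passed also with GC offsets (adjusted p 0.0137, 0.0441, 0.0147 and 0.0325). Gm24270, annotated as a miRNA gene, rose 2.35-fold and the pseudogene Gm6807 3.79-fold, on the log2 scale 1.23 and 1.92. Gm24270 passed with GC offsets. Gm6807 was at 1.98 there and did not pass (adjusted p 0.0600), but passed with GC offsets and only the 8 Tau- libraries (0.00316).

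Among protein-coding genes, Hacd4, an enzyme of very-long-chain fatty acid synthesis, was at 2.08 to 2.93 CPM in Ch25h+/+ Tau- against 5.0 to 5.84 CPM in Ch25h-/- Tau- (log2 fold change 0.997, SE 0.18, adjusted p 0.0234). Scn9a, a voltage-gated sodium channel, rose by 0.85 on the log2 scale (adjusted p 0.0320). Scn9a differed in the same direction in Ch25h-/- Tau+ replicate 1 (0.44), whereas Hacd4 was at -0.39 there. Smaller rises were found in the dynein gene Dnah7c (0.68), the zinc finger gene Zfp933 (0.61) and the cytokine gene Il4 (0.58). None of these 5 genes passed with GC offsets, where the adjusted p ran from 0.105 in Hacd4 to 0.266 in Zfp933 and their log2 fold changes from 0.40 in Zfp933 to 0.82 in Hacd4. With only the 8 Tau- libraries and GC offsets none passed either (adjusted p 0.0632 to 0.185).

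Pyroxd2, which encodes a mitochondrial oxidoreductase, had the largest fall among the genes named, apart from Ch25h itself, and the smallest p of all genes tested. It lies on chromosome 19 from 42725858 to 42752775, 8.25 Mb from Ch25h. It was at 9.06, 4.92, 10.7 and 6.60 CPM in Ch25h+/+ Tau- and at 1.87, 1.59, 1.27 and 1.34 CPM in Ch25h-/- Tau-, with no overlap. The fall was 5.17-fold (log2 fold change -2.37, SE 0.24, adjusted p 0.000152), and -2.27 with GC offsets (adjusted p 0.000199). It was the only gene that passed in all 8 fits without 1 library. In Tau+ it was at 8.12 to 10.6 CPM in Ch25h+/+ and at 2.43, 1.43, 2.39 and 2.31 CPM in Ch25h-/- (log2 fold change -2.16, adjusted p 6.79e-05), so that the rRNA-poor replicate 1, at 2.43 CPM, lay with the other Ch25h-/- libraries.

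Pdlim1, which encodes a PDZ and LIM domain protein of the actin cytoskeleton, lies 5.75 Mb from Ch25h on the same chromosome, from 40221173 to 40271842. It was at 11, 12.3, 8.98 and 8.46 CPM in Ch25h+/+ Tau- and at 4.52, 5.59, 5.002 and 4.96 CPM in Ch25h-/- Tau-. The groups did not overlap and the fall was 2.02-fold (log2 fold change -1.02, SE 0.18, adjusted p 0.0234), or -1.18 with GC offsets (adjusted p 0.0157). In Ch25h-/- Tau+ replicate 1 it was at 5.52 CPM, below the 7.62 to 12.9 CPM of Ch25h+/+ Tau+. Ch25h-/- Tau+ replicates 2 to 4 were at 8.90, 6.25 and 6.495 CPM, and replicate 2 lay within the range of Ch25h+/+ Tau+. Pyroxd2 and Pdlim1 were the only genes, among those whose mean log2 CPM reached 1, that passed with and without GC offsets, did not overlap and differed in Ch25h-/- Tau+ replicate 1 by at least 0.5 of the Tau- fold change in the same direction.

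**Figure D3:**
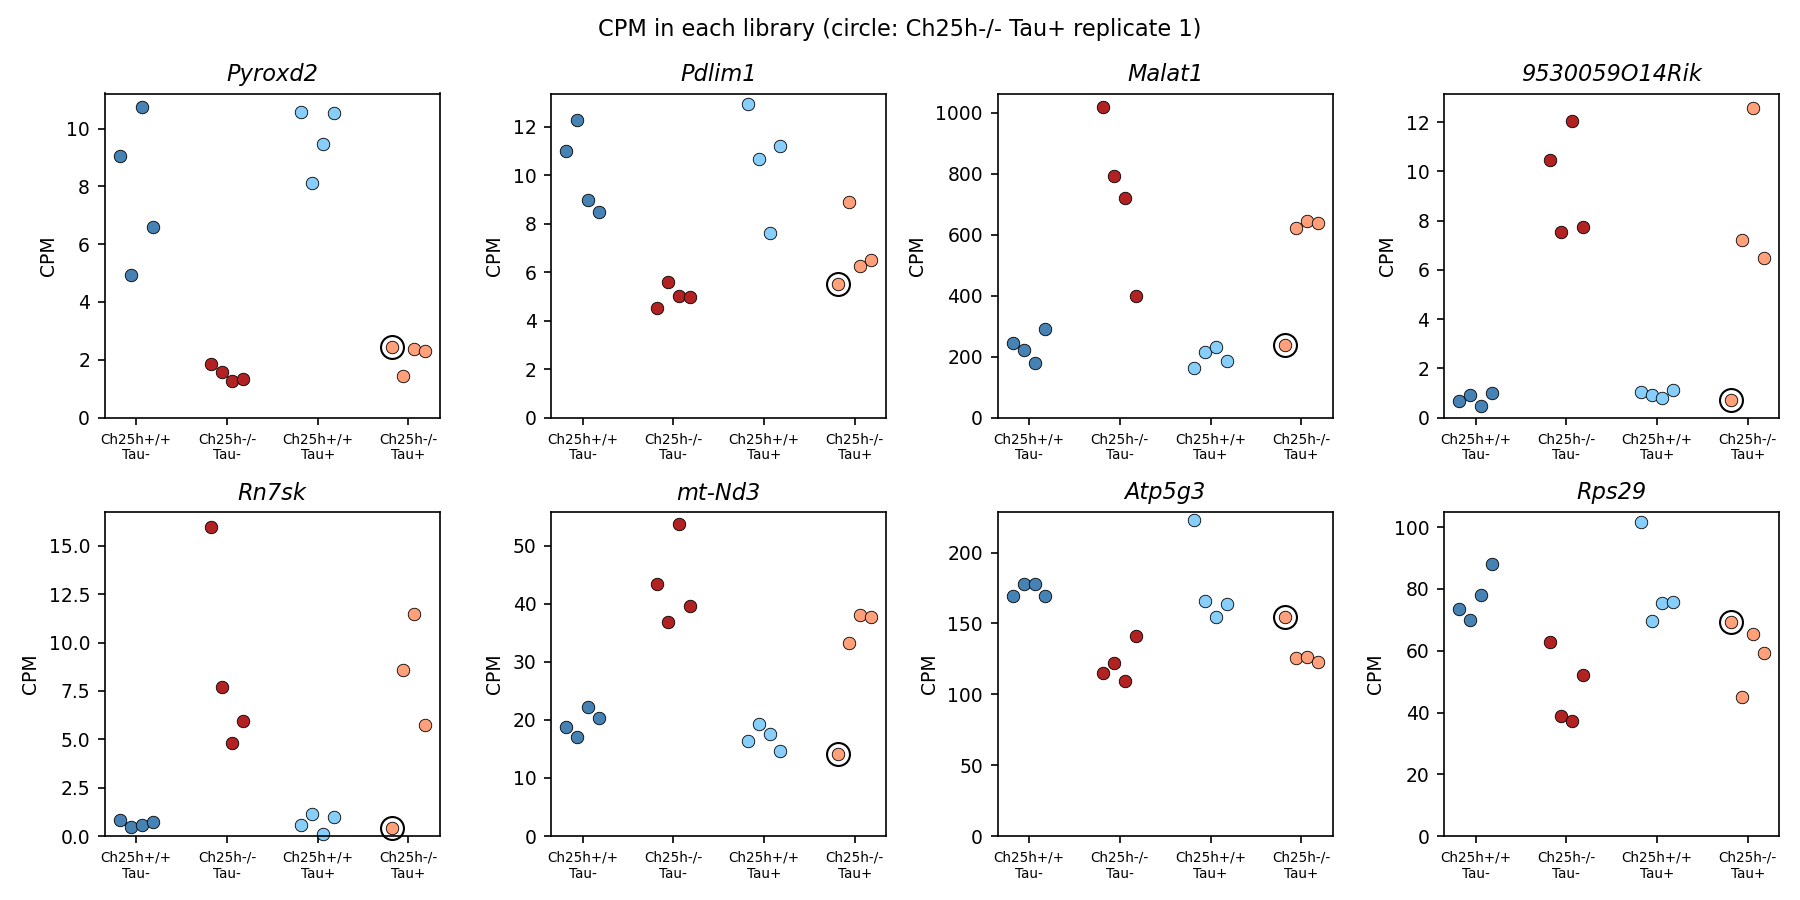
CPM of 8 genes in each of the 16 libraries, by group, with Ch25h-/- Tau+ replicate 1 circled. In Pyroxd2 the circled library lies with the other Ch25h-/- libraries at 2.43 CPM, and in Rn7sk, 9530059O14Rik and Malat1 it lies with the Ch25h+/+ libraries, at 0.391, 0.704 and 237 CPM.

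Chromosome 19, which carries Ch25h, held 20 of the 182 genes, or 3.68% of its 544 genes tested, 17 lower and 3 higher. The next highest share on a nuclear chromosome was 1.43% on chromosome 7. With GC offsets it held 6 of the 13 genes, or 1.1% of its genes tested against 0.0733% of all: Pyroxd2, Pdlim1, Gm10053, Malat1, Esrra and the pseudogene Gm6970. With GC offsets and only the 8 Tau- libraries it held 7 of 67 genes, or 1.29% of its genes tested against 0.378% of all. The calls lay in several stretches. The stretch from 5 to 10 Mb, which does not hold Ch25h, held 8 lower and 1 higher of 141 tested, among them Malat1 and Esrra. Within 10 Mb of Ch25h, 4 of 143 genes tested passed (2.8%, against 0.812% of all genes tested lower), all lower: the inactivated Ch25h itself, Pyroxd2, Pdlim1 and the predicted gene Gm10053. The median log2 fold change of these 143 genes was 0.07, against 0.01 over all genes tested, and turned to -0.03 with GC offsets and with the class covariate.

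Esrra, which encodes a nuclear receptor that drives genes of mitochondrial respiration, was named for passing with GC offsets, after its values were seen. It fell from 83.2 ± 7.03 to 53.7 ± 7.76 CPM (SD, n = 4), a log2 fold change of -0.63 (SE 0.11, adjusted p 0.0223). Gm6970, also chosen after its values were seen, lies 12.7 Mb from Ch25h and rose from 0.221 ± 0.159 to 1.35 ± 0.114 CPM (SD, n = 4). Its difference in Ch25h-/- Tau+ replicate 1 was 1.06. The immediate neighbours of Ch25h did not pass. Gm26902, a long noncoding RNA gene that overlaps Ch25h on the genome, was at 1.29, 0.821, 1.17 and 1.06 CPM in Ch25h+/+ Tau- and at 0.361, 0.412, 0.783 and 0.223 CPM in Ch25h-/- Tau-, with no overlap of the libraries (log2 fold change -1.29, adjusted p 0.0966). The use of strand in the counting is not given, so reads of Gm26902 and Ch25h may not be told apart. Lipa, the lysosomal acid lipase, had a log2 fold change of 0.25 (adjusted p 0.301; 0.07 with GC offsets), and the interferon-induced Ifit1, Ifit2, Ifit3 and Ifit3b had 0.12, 0.13, 0.12 and -0.36 (adjusted p 0.450 to 0.889).

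**Figure D4:**
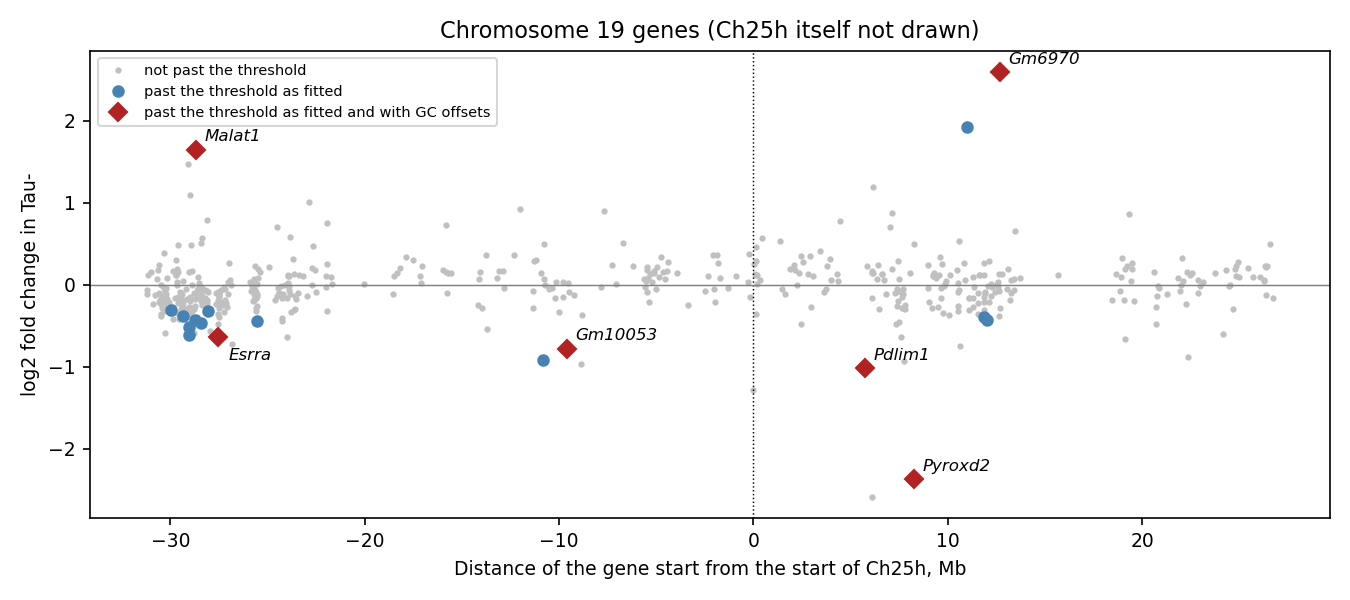
Log2 fold change in Tau- of the chromosome 19 genes tested, Ch25h itself left out, by the distance of the gene start from the start of Ch25h in Mb. Pyroxd2 and Pdlim1 lie 8.25 and 5.75 Mb from Ch25h, and the 6 diamonds are the genes past the threshold as fitted and with GC offsets.

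The other large falls were mostly in copies of other genes or in predicted genes, whose reads may be shared with near-identical sequences, so their values are uncertain. Tpi-rs11, a processed copy of a triosephosphate isomerase gene, was at 4.98 to 7.44 CPM in Ch25h+/+ Tau- against 0.783 to 2.11 CPM in Ch25h-/- Tau- (log2 fold change -1.86, adjusted p 0.01496), and passed with GC offsets. Gm10073, CAAA01147332.1, Gm5854, Gm14303, Gm4673 and Gm9493 fell by 0.92 to 1.68 on the log2 scale, and with GC offsets they were at -0.92 to -1.52 and none of the 6 passed. With GC offsets and only the 8 Tau- libraries, Gm10073, CAAA01147332.1 and Gm4673 passed (adjusted p 0.0488, 0.0237 and 0.0135). Mapkapk5, a stress-activated kinase, fell by 0.98 (adjusted p 0.0497). It was at -0.81 with GC offsets, where it did not pass (adjusted p 0.170), and passed with these and only the 8 Tau- libraries (0.0278). In Ch25h-/- Tau+ replicate 1 it was at 7.08 CPM, within the 5.43 to 7.19 CPM of Ch25h+/+ Tau+. Metrn, a secreted factor of glia and neurons, fell by 0.89 (adjusted p 0.0302), and its difference in Ch25h-/- Tau+ replicate 1 was -0.79. With GC offsets it was at -0.70 and did not pass (adjusted p 0.137, or 0.130 with only the 8 Tau- libraries). C1ql2, a secreted synaptic protein of the dentate gyrus, was at 5.39 to 9.96 CPM in Ch25h+/+ Tau- against 3.31 to 4.53 CPM in Ch25h-/- Tau- (log2 fold change -0.89, adjusted p 0.0497), and did not pass with GC offsets (-0.60, adjusted p 0.264). It is 1 of the 7 hippocampus markers tested, of which 5 were higher and 2 lower, with a median of 0.40.

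Of 82 nuclear-encoded respiratory chain genes tested, 66 were lower and 6 passed, all lower (7.32%, against 0.812% of all genes). The median log2 fold change was -0.18, against 0.01 over all genes tested. The 6 were Atp5g3 and Atp5k of ATP synthase, Ndufa2 and Ndufs6 of complex I, and Uqcr11 and Cyc1 of complex III. Atp5g3 was at 169.6, 178, 178 and 169.7 CPM in Ch25h+/+ Tau- and at 115, 122, 109.7 and 141 CPM in Ch25h-/- Tau-, with no overlap (log2 fold change -0.51, SE 0.11, adjusted p 0.0376). Ndufa2, Uqcr11 and Ndufs6 fell by 0.65, 0.61 and 0.62 on the log2 scale, and Atp5k by 0.89. With GC offsets none of the 6 passed: Atp5g3 and Ndufs6 had an adjusted p of 0.118 at -0.54 and -0.65, and Cyc1 one of 0.666 at -0.09. With GC offsets and only the 8 Tau- libraries, a fit added after seeing the data, 0.378% of all genes tested passed. Of the 6 genes, Atp5g3, Ndufs6, Ndufa2 and Atp5k passed there at about the same fold changes (adjusted p 0.0202, 0.01898, 0.0228 and 0.0418), and Uqcr11 and Cyc1 did not (0.0568 and 0.6195). Summed over the list, the level was 8648 to 9093 CPM in Ch25h+/+ Tau- against 7180 to 8491 CPM in Ch25h-/- Tau-.

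Of the 13 mitochondrially encoded protein genes, 11 were higher, with a median of 0.33, and 2 passed, both higher (against 0.214% of all genes). At an unadjusted p under 0.05, 10 of the 13 were higher (9.55% of all genes) and 1 lower (11.3% of all genes), and 6 were higher with no overlap (7.64% of all genes). mt-Nd3, a complex I subunit, was at 18.7, 17.0, 22.3 and 20.3 CPM in Ch25h+/+ Tau- and at 43.4, 36.9, 53.8 and 39.5 CPM in Ch25h-/- Tau-, with no overlap (log2 fold change 1.15, SE 0.22, adjusted p 0.0284). mt-Nd4, another complex I subunit, rose by 0.52 (adjusted p 0.0497), from 2344 ± 235 to 3366 ± 253 CPM (SD, n = 4). The lower one was mt-Atp6, an ATP synthase subunit, at 75.8, 119, 172 and 38.7 CPM in Ch25h+/+ Tau- and at 59.6, 52.1, 60.6 and 54.3 CPM in Ch25h-/- Tau-, where the libraries overlapped (log2 fold change -0.84, adjusted p 0.161). The 13 genes have a median GC content of 37.1%. With GC offsets their median was 0.07 and none passed, with mt-Nd3 at 0.79 (adjusted p 0.107) and mt-Nd4 at 0.22 (adjusted p 0.411). In the fit of only the 8 Tau- libraries with GC offsets mt-Nd3 passed (0.79, adjusted p 0.00765). The median was -0.02 in Ch25h-/- Tau+ replicate 1 and -0.12 with the class covariate. The median of the nuclear-encoded list was -0.14 with GC offsets and -0.14 in that library.

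Most cytosolic ribosomal protein genes had a log2 fold change below 0. Of 80 tested, 71 were lower, with a median of -0.19, and 2 passed, both lower: Rps29 and Fau, whose product carries ribosomal protein S30. Rps29 was at 73.4, 69.96, 78.0 and 88.2 CPM in Ch25h+/+ Tau- and at 62.8, 38.9, 37.1 and 52.2 CPM in Ch25h-/- Tau- (log2 fold change -0.70, SE 0.16, adjusted p 0.0497). Neither passed with GC offsets, where Rps29 was at -0.69 (adjusted p 0.132) and Fau, at -0.46 as fitted, was at -0.24 (adjusted p 0.351). The share past the threshold was 2.5%, against 0.812% of all genes lower, and 36 of the 80 were lower with no overlap of the libraries, against 8.58% of all genes tested. At an unadjusted p under 0.05, 35 of the 80 were lower, against 11.3% of all genes tested. The summed level of the list did not overlap, at 9133 to 10360 CPM in Ch25h+/+ Tau- against 7886 to 8862 CPM in Ch25h-/- Tau-. The median was -0.18 with GC offsets, -0.16 with GC and length offsets and -0.17 in Ch25h-/- Tau+ replicate 1, where the medians over all genes were -0.01, -0.01 and 0.01. These lists were chosen with earlier results of these data known, and no test of a list as a whole was made.

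**Figure D5:**
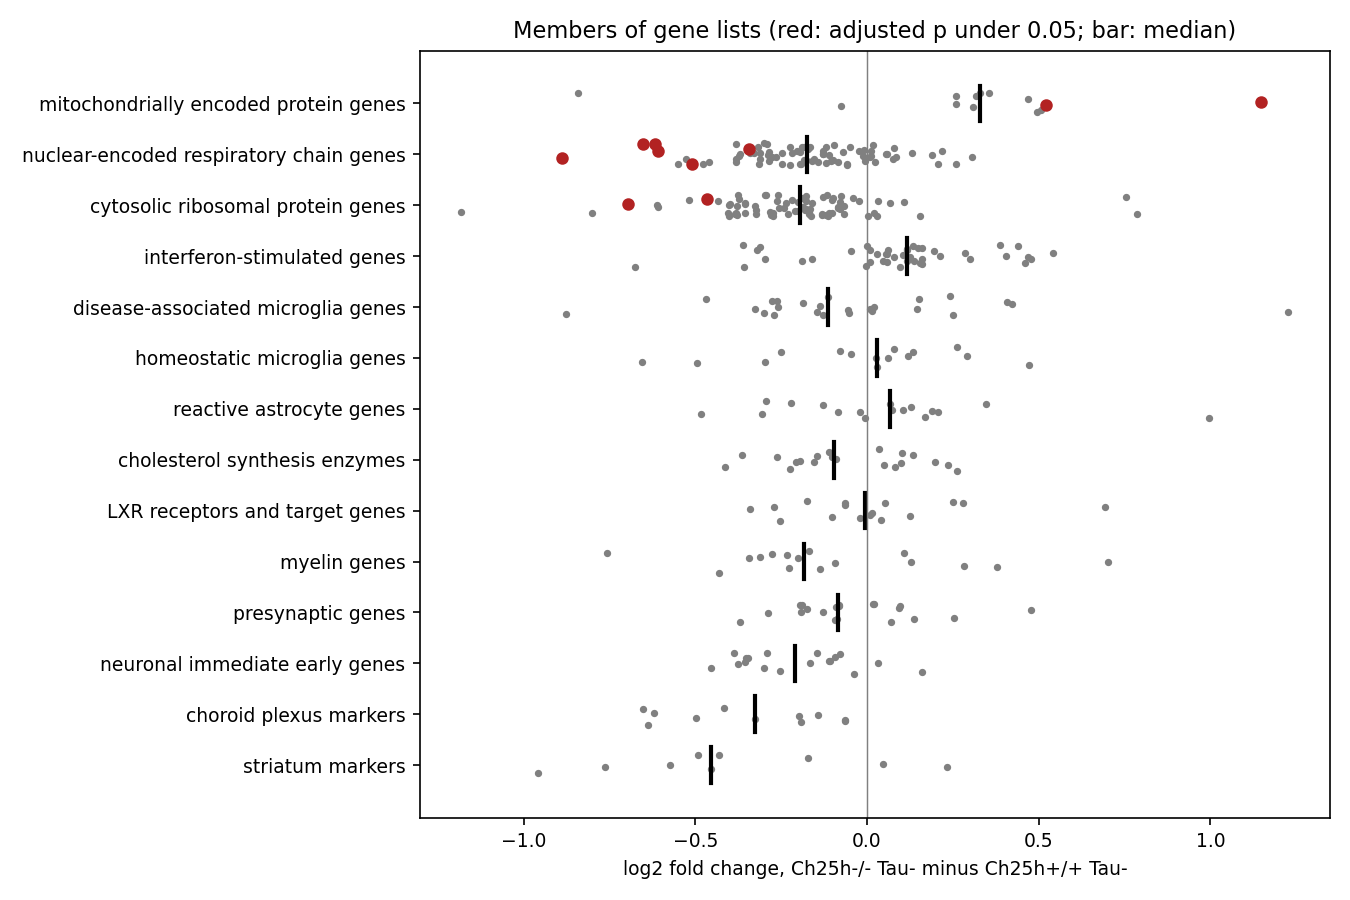
Log2 fold change of Ch25h-/- Tau- against Ch25h+/+ Tau- for the members of 14 gene lists, with genes past the threshold in red and the median of each list as a bar. The median is 0.33 for mitochondrially encoded genes, -0.18 for nuclear-encoded respiratory chain genes and -0.19 for ribosomal protein genes.

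In the lists of sterol metabolism no gene other than Ch25h passed. Of 20 enzymes of cholesterol synthesis, 9 were higher and 11 lower, with a median of -0.10. The member with the smallest p was Ebp, a sterol isomerase, at 15.02 to 16.4 CPM in Ch25h+/+ Tau- against 11.1 to 13.4 CPM in Ch25h-/- Tau- (log2 fold change -0.36, adjusted p 0.0680). Of 12 genes that control SREBP2, including Srebf2 itself (-0.21, adjusted p 0.0893; -0.04 with GC offsets), 6 were higher and 6 lower. Their summed level did not overlap, at 832 to 896 CPM in Ch25h+/+ Tau- against 781 to 807 CPM in Ch25h-/- Tau-. The sums carry no GC offsets, and Srebf2 alone fell from a mean of 354 CPM to 305 CPM in Ch25h-/- Tau-. The median log2 fold change of the list was -0.006, or -0.04 with GC offsets. Of 16 LXR receptor and target genes, 8 were higher and 8 lower, and Nr1h2, which encodes LXR beta, was at -0.34 (adjusted p 0.0687), or -0.10 with GC offsets. Of the 15 oxysterol pathway genes tested, 1 passed, which was Ch25h.

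No gene passed in the lists of immune and glial genes. Of 45 interferon-stimulated genes, 34 were higher and 11 lower, with a median of 0.11, or 0.03 with GC offsets. Ddx58, the RNA sensor RIG-I, had the smallest p of them, at 3.63 to 5.26 CPM in Ch25h+/+ Tau- against 5.59 to 5.90 CPM in Ch25h-/- Tau- (log2 fold change 0.44, adjusted p 0.146). The 25 disease-associated microglia genes had a median of -0.11 and the 15 homeostatic microglia genes one of 0.03. Ctsz, a lysosomal cathepsin, was at -0.30 (adjusted p 0.168) and P2ry12, a purine receptor of resting microglia, at 0.47 (adjusted p 0.0682). With GC offsets Ctsz was at -0.13 and P2ry12 at 0.23, and the medians of the disease-associated and homeostatic lists at -0.06 and 0.01. The 18 complement and antigen presentation genes had a median of -0.03, with H2-D1, a class I molecule, at -0.34 (adjusted p 0.0685; -0.20 with GC offsets). The 17 reactive and 14 homeostatic astrocyte genes tested had medians of 0.07 and 0.08. The 16 myelin genes had a median of -0.18, and the 10 oligodendrocyte precursor genes one of -0.13 (-0.02 with GC offsets). With the class covariate the medians of 4 of these lists changed sign: to 0.13 for myelin, 0.15 for oligodendrocyte precursors, -0.12 for reactive astrocytes and -0.10 for homeostatic microglia.

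Neuronal lists held no gene past the threshold. The 20 presynaptic genes had a median of -0.09, with Slc17a7, the vesicular glutamate transporter VGLUT1, at 1635 to 1750 CPM in Ch25h+/+ Tau- against 1239 to 1558 CPM in Ch25h-/- Tau- (log2 fold change -0.29, adjusted p 0.0649). With GC offsets the median was -0.01 and Slc17a7 was at -0.14. The 19 postsynaptic glutamate genes had a median of 0.09, the 12 interneuron genes one of -0.06 (0.02 with GC offsets) and the 16 tau and microtubule genes one of -0.05. Of 18 neuronal immediate early genes, 16 were lower, with a median of -0.21, which was -0.10 with GC offsets and turned to 0.057 without Ch25h+/+ Tau- replicate 1, to 0.0087 when Ch25h-/- Tau- replicate 3 was left out and to 0.55 with the class covariate. Egr3, an activity-induced transcription factor, was at -0.35 (adjusted p 0.200). Mapt, the mouse tau gene, was at -0.19 (adjusted p 0.152). The 12 heat shock genes had a median of -0.09 and also held none.

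Markers of neighbouring regions and of other cell types were read to see what the samples held. The 10 cortex markers summed to 873 to 969.6 CPM in Ch25h+/+ Tau- against 749 to 988 CPM in Ch25h-/- Tau-, and the hippocampus markers, of which 7 of 8 were tested, to 36.2 to 62.7 and 37.2 to 76.8 CPM. Of the 7 hippocampus markers, C1ql2 passed (14.3%, against 0.812% of all genes tested lower) and the median was 0.40. The 9 striatum markers had a median of -0.46, none passed, 5 were lower at an unadjusted p under 0.05 (against 11.3% of all genes tested), and their sums overlapped at 288 to 459.7 and 274 to 325 CPM. Their part in the results was not tested. Among the marker lists read here, the choroid plexus sums had the widest range in CPM within the groups. They ran from 179.6 to 2032 CPM in Ch25h+/+ Tau- and from 222 to 2550 CPM in Ch25h-/- Tau-. All 11 choroid plexus markers had a log2 fold change below 0, and none passed. Their median was -0.33, or -3.66 with the class covariate. Endothelial and mural, meningeal fibroblast, border-associated macrophage, blood and thalamus markers also held no gene past the threshold, and no member of any of these lists was at 0 in all 8 libraries.

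Ch25h loss in Tau+ shares no library with the comparison in Tau-. In Tau+, 629 genes (3.55%) passed. Of the 182 genes of Tau-, 178 had the same direction in Tau+ (against 13068 of all 17736 genes tested) and 73 passed there, 72 of them in the same direction. The exception was Rps27rt, a retrogene, that is a copy of a ribosomal protein gene, whose reads may be shared with near-identical sequences. Across 17736 genes the log2 fold changes of both tau states had a Spearman's rho of 0.521 (Pearson's r 0.35), and of 0.375 with GC offsets in both. Against Tau- it was 0.562 for the rRNA-rich Ch25h-/- Tau+ replicates 2 to 4 and 0.243 for the rRNA-poor replicate 1. Genes are not independent, and these values describe the libraries. The interaction, which tests whether Ch25h loss differs between the tau states, passed for 6 genes (0.0338%).

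Of these 6, the antigen presentation, complement and microglial genes H2-D1, C1qa, Ctss, Cd74 and Lag3 fell in Tau+ by 1.05 to 3.08 on the log2 scale and had log2 fold changes of -0.34, -0.28, 0.14, 0.33 and -0.32 in Tau-, none past the threshold. H2-D1 was at 51.3, 62.6, 59.7 and 57.8 CPM in Ch25h+/+ Tau- and at 46.1, 46.9, 37.3 and 52.8 CPM in Ch25h-/- Tau-. In Tau+ it was at 111 to 132 CPM in Ch25h+/+ and 51.8 to 56.9 CPM in Ch25h-/-. Rps27rt ran in opposite directions, at 8.09, 19.6, 30.8 and 8.87 CPM in Ch25h+/+ Tau- against 43.7, 38.2, 63.7 and 37.8 CPM in Ch25h-/- Tau-, and at 25.8 to 45.6 CPM against 11.5 to 14.1 CPM in Tau+ (interaction -2.90, adjusted p 0.0222). Its rise in Tau- (log2 fold change 1.44, adjusted p 0.0376) did not pass with GC offsets (1.34, adjusted p 0.118). Interferon-stimulated genes had a median of -0.77 in Tau+, where 15 of 45 passed, all lower (2.4% of all genes tested passed and were lower there), against 0.11 and none in Tau-. None of the 45 passed the interaction.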

How the data were processed

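The deposited table held whole-number counts per gene (54532 entries) for 16 libraries, with no normalization by the authors. Per the labels' protocols, RNA was purified on columns and a SMARTer mRNA kit was used for the libraries; the submitters' processing notes name STAR 2.7 and the build GRCm38 (mm10). The counting program, annotation and use of strand are not given in the sources used here, so overlapping, antisense and copied genes are uncertain. The table held 27 symbols turned into dates and 105 repeated entries.

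Genes were filtered with filterByExpr and tested with edgeR 4.0.16 (R 4.3.3; quasi-likelihood F test, two-sided, TMM) in 1 model of the 16 libraries (1 coefficient per group), with p-values adjusted over 17736 genes (Benjamini-Hochberg, 0.05). GC content and length came from the longest GENCODE M21 transcript by symbol, known for 99.2% of the genes tested. GC offsets were loess fits per library (span 0.5). The procedure was tested on simulated data. Libraries of a group differed by more than counting noise (chi-square per degree of freedom at least 8.06), and none was a duplicate. Intervals and floors cover counting error only.

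The genes named were 10 fixed genes, the 10 largest rises and falls among called genes whose mean log2 CPM reached 1 and whose groups did not overlap (all, and protein-coding), those also robust to GC offsets and to Ch25h-/- Tau+ replicate 1, and up to 4 genes per list past the threshold or, with none, the gene with the smallest p. Some genes that this rule names are not reported here. Members, lists and tests were chosen with earlier results of these data known. Alternatives were DESeq2 1.42.0, limma-voom with quality weights (limma 3.58.1), relative log expression size factors, a filter at a mean of 50 counts, a filter at 1 count, only the 8 Tau- libraries, GC offsets, a covariate for library class (rRNA above 1000 CPM) and leaving out each library. GC offsets with only the 8 Tau- libraries, and GC and length offsets, were added after seeing the data.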

Additional observations from a re-analysis of the deposited data

Results flagged for a closer look

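In several of the genes named, 1 library of a group of 4 stood apart from the other three (Dixon's criterion at the 95% level); chance gives this in about 1 in 20 groups. Among genes that rose, Hacd4 was highest in Ch25h-/- Tau- replicate 1 (5.84 CPM, the next 5.12), Dnah7c was highest in Ch25h+/+ Tau- replicate 1 (5.22, the next 3.88) and lowest in Ch25h-/- Tau- replicate 2 (6.29, the next 6.8), and mt-Nd4 was highest in Ch25h-/- Tau- replicate 3 (3740, the next 3300). Among genes that fell, Gm10073 was highest in Ch25h+/+ Tau- replicate 4 (3.48, the next 2.63), Gm14303 lowest in Ch25h-/- Tau- replicate 3 (0.844, the next 1.9) and Gm9493 lowest in Ch25h+/+ Tau- replicate 4 (3.78, the next 5.09). None of these closed the gap between the groups, but these genes were chosen for groups that did not overlap. In Gm9493 the gap was narrow, with 3.779 CPM in that library against 3.735 CPM in Ch25h-/- Tau- replicate 1.

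Clic6, a chloride channel gene of choroid plexus, was at 24.8 CPM in Ch25h-/- Tau- replicate 2, with the next library of that group at 6.53. It was higher in Ch25h+/+ Tau- replicates 3 and 4, at 29.17 and 26.15 CPM. The summed choroid plexus markers of that Ch25h-/- library, at 2550 CPM, were the highest of the 8 Tau- libraries. In Tau+ the sum reached 4085 CPM, in Ch25h-/- replicate 4.

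Ch25h loss differed between Tau- and Tau+ by the interaction test in 6 genes, all given in the report, of which Rps27rt and H2-D1 were among the genes named by the rule. The interaction was -2.90 for Rps27rt, higher in 4 of 4 Ch25h-/- libraries in Tau- and lower in 4 of 4 in Tau+, and -0.84 for H2-D1 (-0.841), both with an adjusted p of 0.0222 (edgeR).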

How the results depend on the processing

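The count of 182 genes depended on the fit. It was 522 with no filter beyond 1 count, 1124 with DESeq2, 1388 with limma-voom and 1229 with only the 8 Tau- libraries, of which 179 were among the 182. DESeq2 gave 353 higher and 771 lower, and limma-voom 454 higher and 934 lower. The count was 13 with GC offsets, 15 with GC and length offsets and 67 with GC offsets and only the 8 Tau- libraries. With the covariate for library class it was 0 in edgeR (390 at an unadjusted p under 0.05); within Tau- that covariate repeats genotype, so its estimate rests on Ch25h-/- Tau+ replicate 1. Leaving out 1 library gave 3 to 238 genes. The count was 3, 5, 21 and 10 without Ch25h+/+ Tau- replicates 1 to 4, and 13, 13, 5 and 238 without Ch25h-/- Tau- replicates 1 to 4; the cause was not tested.

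Of the 182 genes, those that passed in Tau+ numbered 112 with DESeq2, 125 with limma-voom, 16 with GC offsets, 14 with GC and length offsets and 0 with the class covariate, against 73. The interaction passed for 57 genes with no filter, 55 with DESeq2, 3 with GC and length offsets, 3 with the class covariate and 3 to 7 without 1 library, against 6. The cause was not tested.

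Signs turned in Ifit1 with limma-voom (-0.018), GC offsets (-0.034), GC offsets and only the 8 Tau- libraries (-0.030), GC and length offsets (-0.014), and without Ch25h-/- Tau- replicate 1 (-0.21; up to 0.28 without another library). They turned in Ifit2 with GC offsets (-0.042), GC offsets and only the 8 Tau- libraries (-0.039) and GC and length offsets (-0.034), and in Ifit3 without Ch25h+/+ Tau- replicate 1 (-0.0052; up to 0.35 without another library). With the class covariate the log2 fold change turned to -0.36 in Ifit1, -0.31 in Ifit2, -0.092 in Lipa, -0.027 in CT010467.1, 0.034 in Prnp, -0.72 in Rn7sk, -0.015 in 9530059O14Rik, -0.52 in Gm6807, -0.069 in Gm24270, -0.21 in mt-Nd3, -0.060 in mt-Nd4, 0.085 in Gm4673, 0.22 in Mapkapk5, -0.10 in P2ry12, 0.11 in Hspa1a, -0.0027 in Slco1a4, 0.39 in Hba-a2 and 0.089 in Rspo1.

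Of 34 gene lists, 12 had a median that kept its sign under every alternative and 22 did not; leaving the class covariate aside, 18 kept it. The median of the mitochondrially encoded genes ran from -0.12 (class covariate) to 0.45, that of the myelin genes from -0.27 to 0.13 (class covariate), and that of the immediate early genes from -0.38 to 0.55 (class covariate), with 0.057 once Ch25h+/+ Tau- replicate 1 was left out and 0.0087 once replicate 3 of Ch25h-/- Tau- was. The median of the ribosomal protein genes lay between -0.25 and -0.14 and that of the nuclear-encoded respiratory chain genes between -0.23 and -0.12 under every alternative. Depth limits Ch25h itself, at 5 to 10 counts in the Ch25h+/+ Tau- libraries. No paired analysis was possible because the labels give no replicate numbers; those used here follow the order of the samples and pair no libraries.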
